A study of Arabidopsis thaliana with 6 samples.

Results

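The late genes of anthocyanin synthesis and the transcription factors that govern them were followed in whole seedlings of *Arabidopsis thaliana*, the thale cress. They are 10 loci taken by locus identifier from a count table of 30865 genes, and all 10 were present and tested. Of them, 5 encode enzymes or a carrier of the late pathway (*DFR*, *LDOX*, *UGT79B1*, *UGT75C1* and *TT19*) and 5 encode regulators (*PAP1*, *PAP2*, *TT8*, *TTG1* and *MYBL2*). The genotypes sequenced were the wild-type accession Col-0 and the nup50c mutant, with 3 libraries each. NUP50 proteins belong to the nuclear pore. All seedlings were 9 days old, grew on MS medium of reduced strength with 1% sucrose and received no treatment. About 50 mg of seedlings went into each RNA extraction, and the labels do not say whether replicates were grown apart. The p-values therefore rest on the spread among these samples alone, and part of it may be technical. The numbers on the nup50c titles were read as replicates but could also name alleles, and how the gene was mutated was not given in the sources used here.

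Anthocyanins are purple flavonoid pigments of the vacuole, and in seedlings they gather mainly in the hypocotyl and the cotyledons under light and sugar. Early enzymes such as chalcone synthase serve all flavonoids. The late enzymes turn dihydroflavonols into coloured anthocyanidins and decorate them with sugars and acyl groups. Late genes are switched on by the MBW complex, named after its MYB, bHLH and WD-repeat proteins. PAP1 and PAP2 are the MYB activators, TT8 is a bHLH partner and TTG1 the WD-repeat scaffold. MYBL2 is a small MYB protein that binds the bHLH partner and represses the same genes.

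The stretches around the starts of the 5 late genes are shown because the genotypes did not overlap for these genes, which are known targets of the MBW complex. Each runs 5′ to 3′ on the gene's own strand, from 250 bases before the annotated start of the gene to 50 bases from it, and was read from the RefSeq TAIR10.1 genome. Capitals mark matches, on either strand, to a MYB core (CNCCAC), the G-box (CACGTG), the core bound by HY5-type factors (ACGTG), the E-box of bHLH proteins (CANNTG), the evening element (AAAATATCT) and a CCA1 site (AAAAATCT). G-box letters also count for the ACGTG core and the E-box. The window of *DFR* lies at chr5:17165983-17166282 on the minus strand, that of *LDOX* at chr4:12006160-12006459 on the minus strand, that of *UGT79B1* at chr5:21938347-21938646 on the minus strand, that of *UGT75C1* at chr4:8123786-8124085 on the minus strand and that of *TT19* at chr5:5658166-5658465 on the plus strand.
DFR: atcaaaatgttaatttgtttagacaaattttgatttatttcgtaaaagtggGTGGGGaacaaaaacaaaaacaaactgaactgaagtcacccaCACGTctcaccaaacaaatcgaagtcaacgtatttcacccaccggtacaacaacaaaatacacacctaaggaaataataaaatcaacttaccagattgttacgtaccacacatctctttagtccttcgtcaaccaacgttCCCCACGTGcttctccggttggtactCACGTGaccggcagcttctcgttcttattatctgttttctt
LDOX: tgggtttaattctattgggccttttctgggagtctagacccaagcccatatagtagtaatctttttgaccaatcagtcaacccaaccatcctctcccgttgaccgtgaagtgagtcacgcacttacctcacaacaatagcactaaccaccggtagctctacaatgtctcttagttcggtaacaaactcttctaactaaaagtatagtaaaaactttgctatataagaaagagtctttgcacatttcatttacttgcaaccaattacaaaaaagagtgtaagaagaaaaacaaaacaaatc
UGT79B1: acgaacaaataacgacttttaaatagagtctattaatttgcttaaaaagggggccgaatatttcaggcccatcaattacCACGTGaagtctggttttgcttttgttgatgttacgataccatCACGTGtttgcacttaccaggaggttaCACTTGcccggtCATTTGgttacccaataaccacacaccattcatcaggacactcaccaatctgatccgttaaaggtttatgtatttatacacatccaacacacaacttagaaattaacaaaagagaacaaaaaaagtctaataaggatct
UGT75C1: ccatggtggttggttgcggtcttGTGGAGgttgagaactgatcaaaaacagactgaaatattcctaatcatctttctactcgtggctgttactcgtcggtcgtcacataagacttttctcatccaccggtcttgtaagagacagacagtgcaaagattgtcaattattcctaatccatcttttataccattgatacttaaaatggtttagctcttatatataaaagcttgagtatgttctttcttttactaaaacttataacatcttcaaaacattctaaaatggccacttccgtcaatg
TT19: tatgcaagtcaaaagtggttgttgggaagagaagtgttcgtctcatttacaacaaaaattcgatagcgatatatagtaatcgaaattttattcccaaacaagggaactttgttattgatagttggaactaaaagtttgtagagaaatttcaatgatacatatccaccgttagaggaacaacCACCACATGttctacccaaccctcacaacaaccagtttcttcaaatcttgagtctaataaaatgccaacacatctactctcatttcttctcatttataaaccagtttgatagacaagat

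With the first base of the annotated gene counted as 0, *DFR* had MYB cores at -199 to -194 and at -17 to -12. It had G-boxes at -14 to -9 and, inside the transcribed part, at 9 to 14. A further ACGTG core lay at -157 to -153. The last letters of the MYB core at -17 are also the first of the G-box at -14. *TT19* showed a similar arrangement, a MYB core at -69 to -64 that runs into an E-box at -66 to -61. *UGT79B1* had G-boxes at -171 and -128 and no MYB core, and *UGT75C1* had 1 MYB core at -227. The *LDOX* window held none of the 6 motifs. Among the regulators, *PAP2* had a G-box at -46 and *MYBL2* an evening element at -221. The MYB core was in 3 of the 10 windows, against 22.3% of 27437 windows of protein-coding genes. The G-box was in 3 against 7.68%, the ACGTG core in 5 against 26.7%, the E-box in 6 against 61.7%, the evening element in 1 against 2.82% and the CCA1 site in 0 against 7.88%. These matches describe the letters in the windows and were not set against the expression values by any test.

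**Figure D1:**
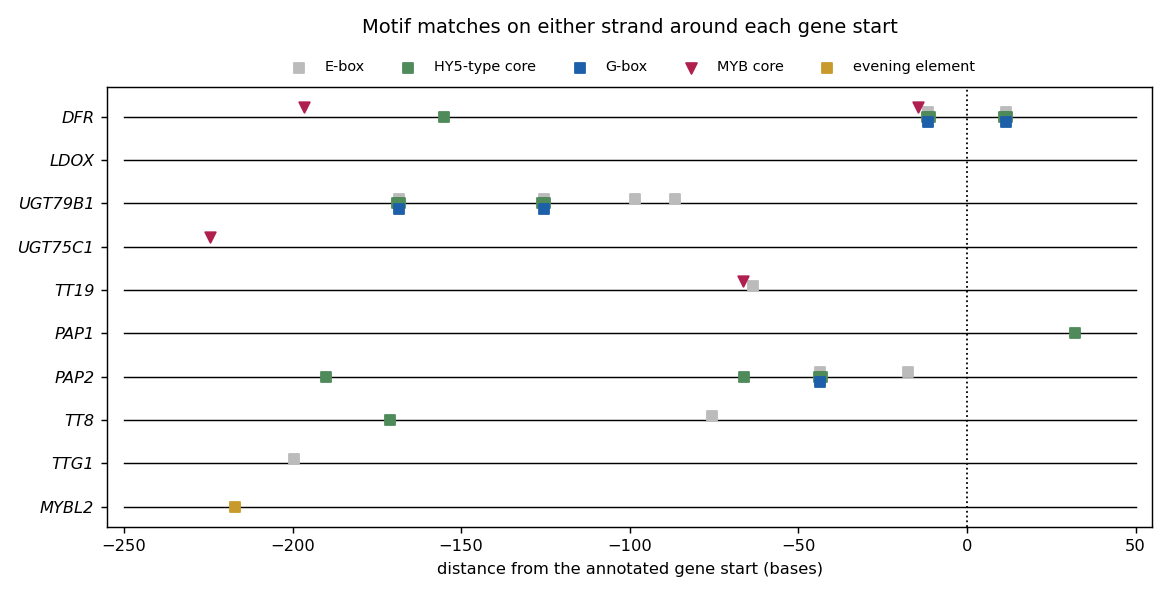
Motif matches within 250 bases before and 50 bases after the annotated start of each gene; the horizontal axis is the distance from the start in bases, each row is a gene and each symbol the centre of a match. A MYB core and a G-box of *DFR* share letters just before its start, and *LDOX* has no match.

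The targeted gene, *NUP50C* (AT4G11790), stood at 35.7, 30.4 and 29.0 CPM (counts scaled to a common library size, TMM-normalized) in Col-0 and at 13.6, 10.01 and 10.3 in nup50c, so the 6 libraries matched their labels and a transcript remained (log2 fold change -1.49, SE 0.15, edgeR adjusted p = 0.00293). Libraries summed to between 33273007 and 39574236 counts. On the second principal component (23.3% of the variance) nup50c replicate 3 lay at -47.7, apart from the other libraries at -7.49 to 18.4. Leaf, root and epidermis markers were present in all libraries. The summed level of 3 leaf markers ran from 30780 to 31248 CPM in Col-0 and from 27408 to 29491 in nup50c, that of 3 root markers from 54.2 to 59.98 and from 52.5 to 58.6, and that of 2 epidermis markers from 163.5 to 171.1 and from 176.1 to 192.0. The leaf sums thus lay lower and the epidermis sums higher in nup50c, and the part of either in the results was not tested. Singly, 1 of the 3 leaf markers, *LHCB1.3*, did not overlap between the genotypes (log2 fold change -0.24, edgeR adjusted p = 0.112). The other leaf markers and both epidermis markers overlapped. EdgeR called 0 of the leaf and 0 of the epidermis markers, and DESeq2 1 and 0. Of 3 seed storage and 3 flower markers, 2 each were listed at 0 in all libraries. Fewer pigment-making cells and less RNA per cell cannot be told apart in whole seedlings.

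Each of the 5 late genes was lower in every nup50c library than in any Col-0 library, and *DFR* passed the test over all genes. In nup50c their means stood at 43.9% to 70.1% of Col-0. Of the 5 regulators 0 passed by edgeR or DESeq2 (1 at an unadjusted edgeR p under 0.05, *MYBL2*), and the groups overlapped for each of these. Of the 10 genes, 1 was called lower and 0 higher by the edgeR quasi-likelihood test, Benjamini-Hochberg adjusted over 21158 genes, of which 2.28% were called, 1.17% as lower and 1.12% as higher. At an unadjusted p under 0.05, 6 of the 10 were lower, beside 7.98% of all genes. The groups did not overlap, with nup50c lower, for 5 of the 10 and for 11.6% of all genes. All 10 fitted log2 fold changes were below 0, as were 50.5% of all genes, with a median of -0.77 beside -0.0028 over all genes. *PAP2* and *TT8* were listed at 0 in some libraries, and without them the median of the other 8 was -0.69.

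*DFR* (AT5G42800) encodes dihydroflavonol reductase, the first enzyme of the late branch. It lies on chromosome 5 of TAIR10.1 from 17164093 to 17166032, on the minus strand, with 6 exons and no overlapping gene. The libraries measured 18.8, 19.2 and 22.1 CPM in Col-0 and 12.4, 7.32 and 9.11 in nup50c. All mutant libraries lay well below the lowest wild-type one, and nup50c replicate 1 was the highest of the mutant libraries. *DFR* fell from 20.04 ± 1.76 to 9.60 ± 2.56 CPM (SD, n = 3 each), a log2 fold change of -1.06 (SE 0.19, edgeR adjusted p = 0.0253). The call was lost without any 1 of the Col-0 libraries (edgeR adjusted p = 0.112, 0.0911 and 0.0785 without replicates 1, 2 and 3) and without nup50c replicate 2 (0.0767) or 3 (0.0575), and it stood without nup50c replicate 1.

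*LDOX* (AT4G22880), leucoanthocyanidin dioxygenase, makes the first coloured anthocyanidin. It is annotated on chromosome 4 from 12004726 to 12006209, on the minus strand, with no overlapping gene. It measured 12.5, 13.6 and 14.4 CPM in Col-0 and 10.4, 4.82 and 5.03 in nup50c. Replicate 1 of nup50c lay just under the wild type, at 77.0% of the Col-0 mean, and replicates 2 and 3 at 35.7% and 37.3%. The log2 fold change of -0.9999 (SE 0.29) did not pass (edgeR adjusted p = 0.136). Without nup50c replicate 1 it was -1.45 and passed (edgeR adjusted p = 0.0140), and it also passed by DESeq2 with all libraries (adjusted p = 0.0317).

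*TT19* (AT5G17220, also *GSTF12*) encodes a glutathione transferase needed to bring anthocyanins to the vacuole. The gene, on the plus strand of chromosome 5 between 5658416 and 5659661, shares 108 bases with *PSY*, the phytoene synthase gene on the other strand. The values were 5.97, 8.01 and 7.23 CPM in Col-0 and 5.75, 2.90 and 2.95 in nup50c. As for *LDOX*, nup50c replicate 1 was close to the wild type, at 81.3% of its mean, and the others stood at 41.0% and 41.7%. On the log2 scale the fold change of -0.87 (SE 0.29) did not pass (edgeR adjusted p = 0.174), whereas without nup50c replicate 1 it was -1.27 and did (adjusted p = 0.0492). *PSY*, at 232.9 CPM in Col-0, differed by 0.01 on the log2 scale (edgeR adjusted p = 0.98). The libraries kept strand, but whether counting used it was not given in the sources used here, so reads from the shared bases cannot be told apart.

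*UGT79B1* (AT5G54060, named *UF3GT* in the count table) encodes a glycosyltransferase that adds xylose to the sugar of anthocyanins. The gene lies on chromosome 5 from 21936746 to 21938396 and has 1 exon. It measured 3.50, 5.16 and 3.38 CPM in Col-0 and 2.53, 1.84 and 0.921 in nup50c. The lowest library, nup50c replicate 3, held 30 counts, 22.9% of the Col-0 mean after scaling. The log2 fold change of -1.18 had the widest error of the late genes (SE 0.39, edgeR adjusted p = 0.165). On the log2(FPKM + 1) scale, which compresses low genes, it was -0.71.

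*UGT75C1* (AT4G14090) encodes the anthocyanin glucosyltransferase that adds a second glucose to the pigment. It lies on chromosome 4 from 8122188 to 8123835, on the minus strand, and overlaps AT4G14100 by 230 bases and AT4G06175 by 217 bases, both on the other strand. The libraries gave 9.10, 8.92 and 10.2 CPM in Col-0 and 7.32, 7.37 and 5.09 in nup50c. Here replicate 3 was the low one, and replicates 1 and 2 were nearly equal. The log2 fold change of -0.51 (SE 0.19) was the smallest of the late genes and did not pass (edgeR adjusted p = 0.209). The value of AT4G14100, 0.39 on the log2 scale (edgeR adjusted p = 0.178), was opposite in sign, and that of AT4G06175, -1.28 (adjusted p = 0.60) at 0.428 CPM in Col-0, was the same in sign.

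**Figure D2:**
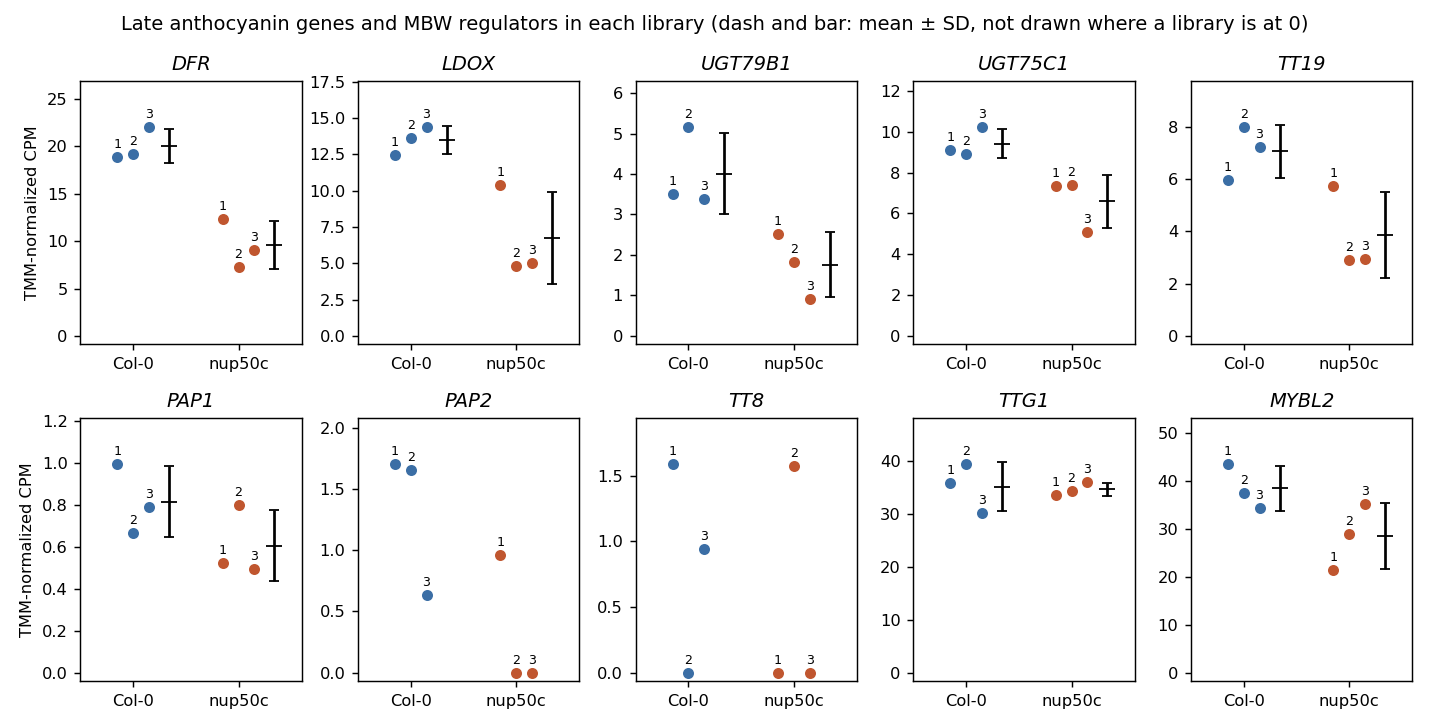
TMM-normalized CPM of each gene in each library; numbers beside the points are replicate numbers, and the dash and bar are the mean and SD of 3 libraries. In the upper row all nup50c points lie below all Col-0 points, while in the lower row the groups overlap.

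The late genes varied more among the nup50c libraries than among the Col-0 libraries. The coefficient of variation of *DFR* was 8.78% in Col-0 and 26.7% in nup50c, and that of *LDOX* 7.13% and 46.8%. For *TT19* it was 14.5% and 42.2%, for *UGT79B1* 24.9% and 45.7% and for *UGT75C1* 7.57% and 19.7%. With 3 libraries a group this difference in spread was not tested. It was not particular to the late genes. *MYBL2* (12.3% and 24.0%) and *PAP1* (20.6% and 28.0%) also varied more in nup50c, and *TTG1* (13.3% and 3.58%) less. Over all genes with enough counts, chi-square per gene between replicates was 14.7 to 21.2 in Col-0 and 16.0 to 30.1 in nup50c. Library nup50c replicate 1 was the highest mutant library for *DFR*, *LDOX*, *TT19* and *UGT79B1*, and replicate 2 for *UGT75C1* by a narrow margin.

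Among the regulators, *TTG1* (AT5G24520), the scaffold that also serves trichome, root hair and seed coat programmes, was nearly level. It measured 35.9, 39.6 and 30.3 CPM in Col-0 and 33.7, 34.4 and 36.1 in nup50c. All mutant libraries lay inside the range of the wild type (log2 fold change -0.02, SE 0.11, edgeR adjusted p = 0.96). *MYBL2* (AT1G71030), the repressor, measured 43.6, 37.5 and 34.3 CPM in Col-0 and 21.5, 29.0 and 35.2 in nup50c. Replicates 1 and 2 of nup50c lay below the wild type and replicate 3 inside its range. The log2 fold change of -0.43 (SE 0.18) did not pass (edgeR adjusted p = 0.282). The library with the least *MYBL2*, nup50c replicate 1, was the one with the most *DFR*, *LDOX*, *TT19* and *UGT79B1* among the mutant libraries. Between nup50c replicates 2 and 3 the late genes differed in order. *MYBL2* was lower in replicate 2 than in replicate 3 (29.0 against 35.2 CPM), and so was *DFR* (7.32 against 9.11). *UGT79B1* (1.84 against 0.921) and *UGT75C1* (7.37 against 5.09) were higher in replicate 2. *LDOX* (4.82 against 5.03) and *TT19* (2.90 against 2.95) were nearly level. Before scaling, their counts were higher in replicate 2 (181 against 164 for *LDOX*, 109 against 96 for *TT19*), so no order was read. A link of *MYBL2* with the late genes was not tested.

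*PAP1* (AT1G56650) and *PAP2* (AT1G66390, also *MYB90*) are paralogous MYB activators whose expression goes with anthocyanin colour. *PAP1* was near the lower end of what the libraries measured, with 35, 24 and 31 counts in Col-0 and 18, 30 and 16 in nup50c. The groups overlapped through nup50c replicate 2 (log2 fold change -0.43, SE 0.69, edgeR adjusted p = 0.83). *PAP2* had 60, 60 and 25 counts in Col-0, 33 in nup50c replicate 1, and was listed at 0 in nup50c replicates 2 and 3, in the counts as in the FPKM. Its fitted log2 fold change of -2.05 (SE 1.55, edgeR adjusted p = 0.59) rests on those values of 0 and ranged from -8.59 (without nup50c replicate 1, adjusted p = 0.0653) to -0.80 (log2(FPKM + 1)) over 15 alternatives with no call. The bHLH gene *TT8* (AT4G09820) was listed at 56, 0 and 37 counts in Col-0 and at 0, 59 and 0 in nup50c. Both genotypes thus held a library at 0 beside one at 56 or 59 counts, and a 0 in these tables may be a failed estimate, so no direction was read from *TT8* (log2 fold change -0.67, SE 2.07, edgeR adjusted p = 0.92). The spread left by such low counts does not show that the activators were alike in the genotypes.

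The coding sequences of *PAP1* and *PAP2* were 84.0% identical, and their transcripts shared no identical run longer than 42 bases. *PAP2* shared a run of 77 bases with its relative *MYB114*. These runs are shorter than a read of the length that the series' design text names. *MYB113* and *MYB114*, the other MYB activators of the family, were listed at 0 in all libraries.

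Per transcript length, in the authors' FPKM, the order of the levels in Col-0 was *MYBL2* (28.3 ± 3.62, SD, n = 3), *TTG1* (18.5 ± 2.59), *DFR* (11.9 ± 0.970), *LDOX* (8.72 ± 0.587), *TT19* (5.84 ± 0.857), *UGT75C1* (5.16 ± 0.358), *UGT79B1* (2.19 ± 0.560), *PAP2*, *PAP1* and *TT8*. The repressor was thus the most abundant of the 10 transcripts, and the MYB and bHLH activators the least. Neighbours in this order did not overlap between libraries except *TT19* with *UGT75C1* and *PAP2* with *PAP1* and *PAP1* with *TT8*. The FPKM of *PAP2* in Col-0 were 1.53, 1.49 and 0.563, those of *PAP1* 0.810, 0.537 and 0.631, and those of *TT8* 0.711, 0 and 0.420. In nup50c *MYBL2* (21.3 ± 4.87) overlapped *TTG1* (18.2 ± 0.370), and *DFR* (5.77 ± 1.55), *LDOX* (4.40 ± 2.08), *UGT75C1* (3.66 ± 0.771) and *TT19* (3.22 ± 1.38) formed a run in which each overlapped the next.

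**Figure D3:**
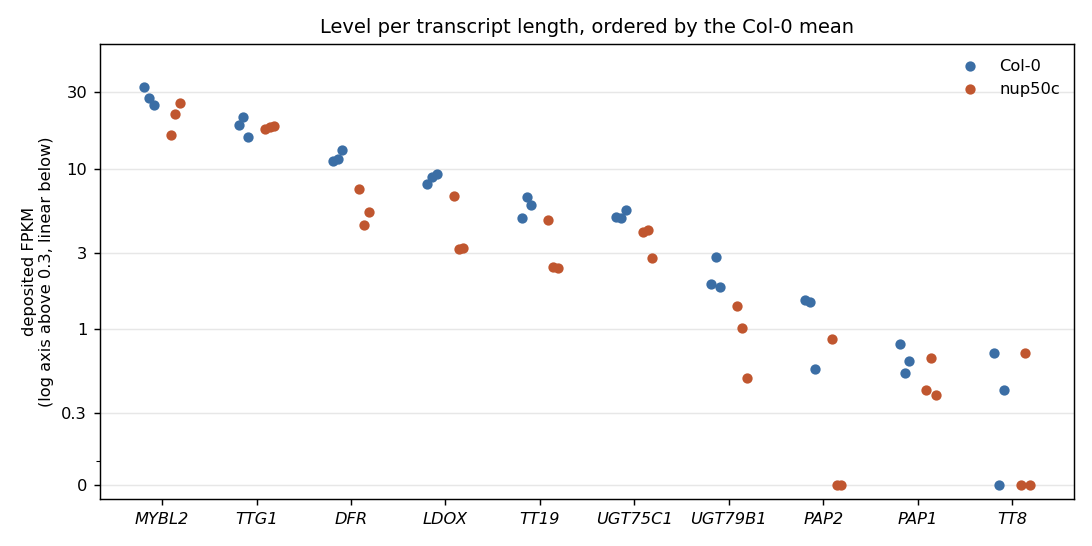
Deposited FPKM of the 10 genes in each library, ordered by the Col-0 mean; the vertical axis is logarithmic above 0.3 and linear below. In Col-0 the late genes lie between *TTG1* and the activators, in nup50c *UGT79B1* (0.501 to 1.40) is mixed with the activators, and the values of 0 belong to *PAP2* and *TT8*.

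Of 6 other genes of anthocyanin decoration, 2 fell, 4 did not pass and all 6 had log2 fold changes below 0, with a median of -0.67. Over all genes, 1.17% were called lower and 50.5% were below 0. As for the late genes, the groups mostly did not overlap, with nup50c lower for 5 of the 6, beside 11.6% of all genes. At an unadjusted edgeR p under 0.05, 5 of the 6 were lower, beside 7.98% of all genes. *BGLU10*, of a family of glucosidase-like enzymes that here move glucose onto anthocyanins, measured 34.8, 28.3 and 27.6 CPM in Col-0 and 16.4, 15.8 and 17.6 in nup50c. The groups lay far apart with a tight mutant group (log2 fold change -0.86, SE 0.12, edgeR adjusted p = 0.00960). *SCPL10*, a carboxypeptidase-like acyltransferase that attaches sinapate, measured 13.1, 14.2 and 16.1 CPM in Col-0 and 7.90, 6.50 and 8.53 in nup50c (log2 fold change -0.92, SE 0.16, edgeR adjusted p = 0.0216). *SCPL10* lost its call without any 1 of the libraries except nup50c replicate 3 (highest adjusted p = 0.0832 in these) and *BGLU10* without nup50c replicate 2 (0.0535). *UGT78D2*, which puts the first glucose on flavonols and anthocyanidins alike, stood at -0.33 on the log2 scale (adjusted p = 0.226).

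The early flavonoid and phenylpropanoid genes, which feed both flavonols and anthocyanins, were closer to the wild type. Of 12 tested, edgeR called 0 (4 lower at an unadjusted p under 0.05, beside 7.98% of all genes). DESeq2 called 2 of the 12 and 1278 of 21983 genes in all. The groups did not overlap, with nup50c lower, for 4 of the 12, beside 11.6% of all genes. All 12 were below 0, as were 50.5% of all genes. The median log2 fold change was -0.17, beside -0.9999 for the 5 late genes. *CHS*, chalcone synthase, measured 311.8, 291.1 and 357.8 CPM in Col-0 and 334.5, 292.6 and 237.4 in nup50c, with overlapping groups (log2 fold change -0.15, SE 0.13, edgeR adjusted p = 0.65). The smallest p belonged to *CHIL*, a chalcone isomerase-like helper (-0.36, adjusted p = 0.0932). Whether the late genes differ from the early ones was not tested.

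Of 5 other partners of the MBW complex tested, 0 were called by edgeR (0 at an unadjusted p under 0.05) and 0 by DESeq2. The bHLH genes *GL3* (0.12 on the log2 scale, SE 0.36, edgeR adjusted p = 0.92) and *EGL3* (-0.14, SE 0.34, 0.90), which share the bHLH role with *TT8*, had overlapping groups, and *MYB23*, a trichome MYB, had the smallest p of 5 tested partners (-0.28, adjusted p = 0.67). Among 3 targets of *TTG1* outside anthocyanin synthesis, *TTG2* was lower in CPM in each nup50c library but did not pass (-0.71, SE 0.27, adjusted p = 0.229). In FPKM its groups overlapped, at 2.28, 2.31 and 1.66 in Col-0 and 1.66, 1.91 and 1.57 in nup50c, and *GL2* stood at -0.0027 (adjusted p = 0.997). Of 6 seed coat proanthocyanidin genes in the counts, 5 were listed at 0 in all libraries, *BAN*, *TT12* and *TT2* among them, and *AHA10* did not pass (0.95, SE 1.13, adjusted p = 0.76, with 1 Col-0 library at 0).

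Repressors and light inputs gave further edgeR calls, all lower, beside 1.17% of all genes called lower. Of 9 repressors tested, edgeR called 1 (2 at an unadjusted p under 0.05) and DESeq2 1. Their log2 fold changes were below 0 for 5 and above 0 for 4, with a median of -0.05. *SPL9* was higher in every nup50c library than in any Col-0 library but did not pass (0.42, SE 0.16, edgeR adjusted p = 0.240). *LBD37*, a nitrogen-responsive factor that holds down *PAP1* and *PAP2*, measured 170.7, 164.2 and 161.0 CPM in Col-0 and 139.4, 128.5 and 119.5 in nup50c. It fell by 0.36 on the log2 scale (SE 0.07, edgeR adjusted p = 0.0374). That call was lost in 10 of 17 other settings, among them without any 1 of the libraries except nup50c replicate 1 (highest adjusted p = 0.176). Of 12 light input genes, 3 fell by edgeR (3 at an unadjusted p under 0.05), and DESeq2 called 3. The log2 fold changes of the 12 were below 0 for 8 and above 0 for 4, with a median of -0.07. *HYH*, the homologue of the light factor HY5, measured 25.4, 19.6 and 20.03 CPM in Col-0 and 8.16, 10.4 and 10.096 in nup50c (-1.18, SE 0.15, adjusted p = 0.00804). *BBX24* (-0.61, adjusted p = 0.0109), a B-box protein of the HY5 network, and *PIF5* (-0.71, adjusted p = 0.0154), a phytochrome-interacting factor, also fell. The call of *HYH* stood without each library, that of *BBX24* was lost without Col-0 replicate 1 or nup50c replicate 2 (highest adjusted p = 0.0693), and that of *PIF5* without these or Col-0 replicate 2 (0.0927). *HY5* itself did not pass (-0.09, SE 0.15, adjusted p = 0.84).

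**Figure D4:**
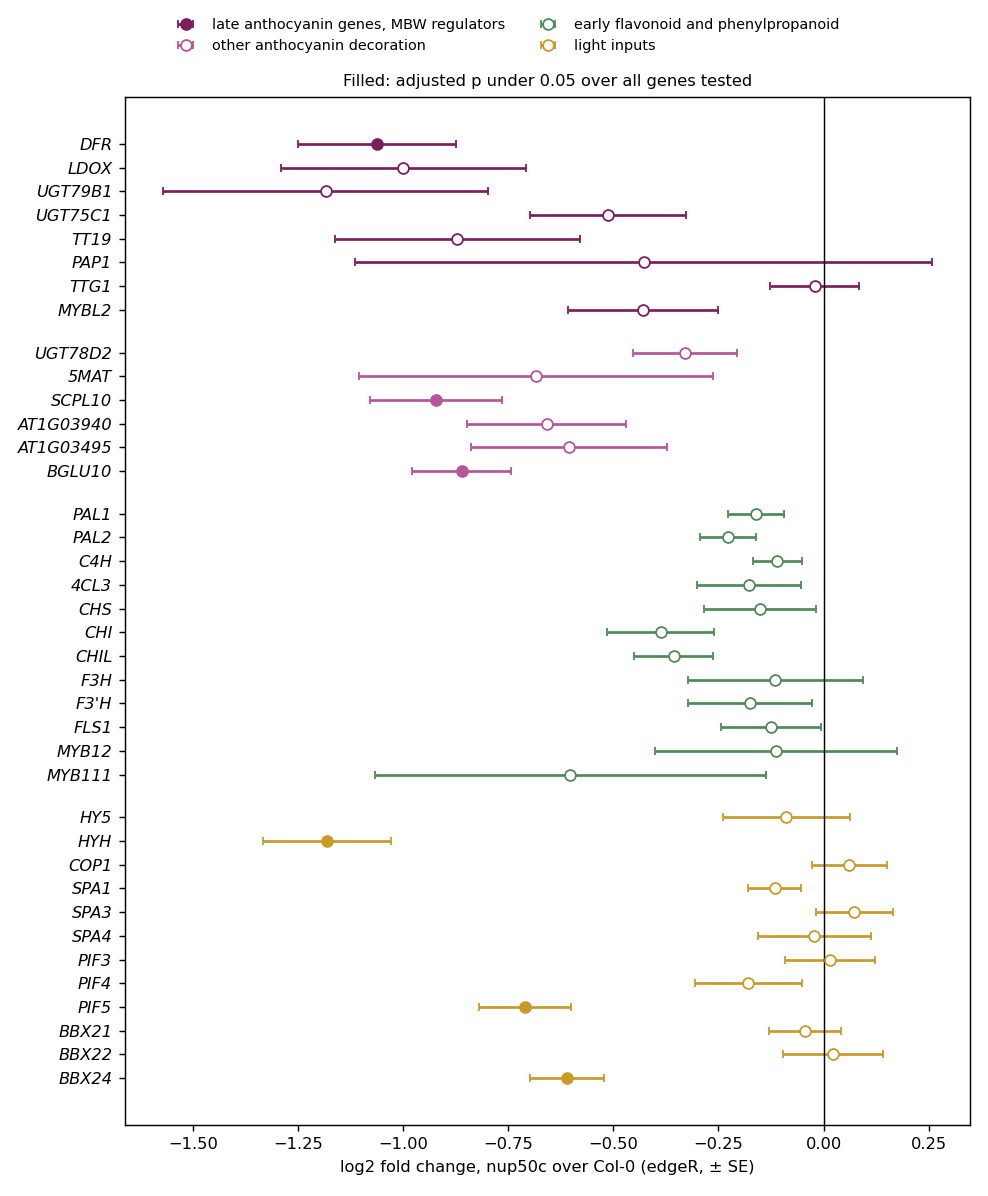
Log2 fold changes of nup50c over Col-0 with their standard errors; rows are genes, colours are the gene lists and filled circles passed an adjusted p of 0.05. *PAP2* and *TT8* are left out because libraries were listed at 0. The late and decoration genes lie mostly between -0.5 and -1.2 and the early genes mostly between -0.4 and 0.

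Sucrose raises anthocyanin genes in seedlings, and both sugar-related genes were measured. *SUC1*, a sucrose transporter that responds to sugar, did not pass (log2 fold change 0.09, SE 0.07, edgeR adjusted p = 0.62). *GPT2*, a sugar-phosphate carrier of the plastid that rises with sugar, had 195, 314 and 142 counts in Col-0, was listed at 0 in all nup50c libraries and was called lower (edgeR adjusted p = 0.00289). Its FPKM were 0.439, 0 and 1.10 in nup50c beside 2.92, 4.58 and 1.88 in Col-0, groups that did not overlap either. Because a count of 0 stands beside an FPKM above 0 in nup50c replicates 1 and 3, no fold is given.

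Over the 6 libraries, the genes whose log2 values most resembled the mean profile of the 5 late genes were *G6PD6* (Pearson r = 0.999), *GR-RBP5* (0.997), *SDR5* (0.996), AT5G08050 (0.993) and *MYB106* (0.992). They were picked from 19406 genes of at least 1 CPM, of which 416 had an r over 0.9, and all points share the split into genotypes. Their own log2 fold changes ran from -0.14 for *G6PD6* (edgeR adjusted p = 0.36) to -0.51 for *MYB106* (0.186), the latter as large as that of *UGT75C1*. Each of the 5 was lower in every nup50c library than in any Col-0 library, which picking by likeness favours. Of the 5, 0 passed edgeR (3 at an unadjusted p under 0.05) or DESeq2. With the same profile *PAP2* had an r of 0.88, *PAP1* 0.46, *MYBL2* 0.30, *TT8* 0.11 and *TTG1* -0.07. Over 6 libraries, with values of 0 in *PAP2* and *TT8*, these are descriptions.

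**Figure D5:**
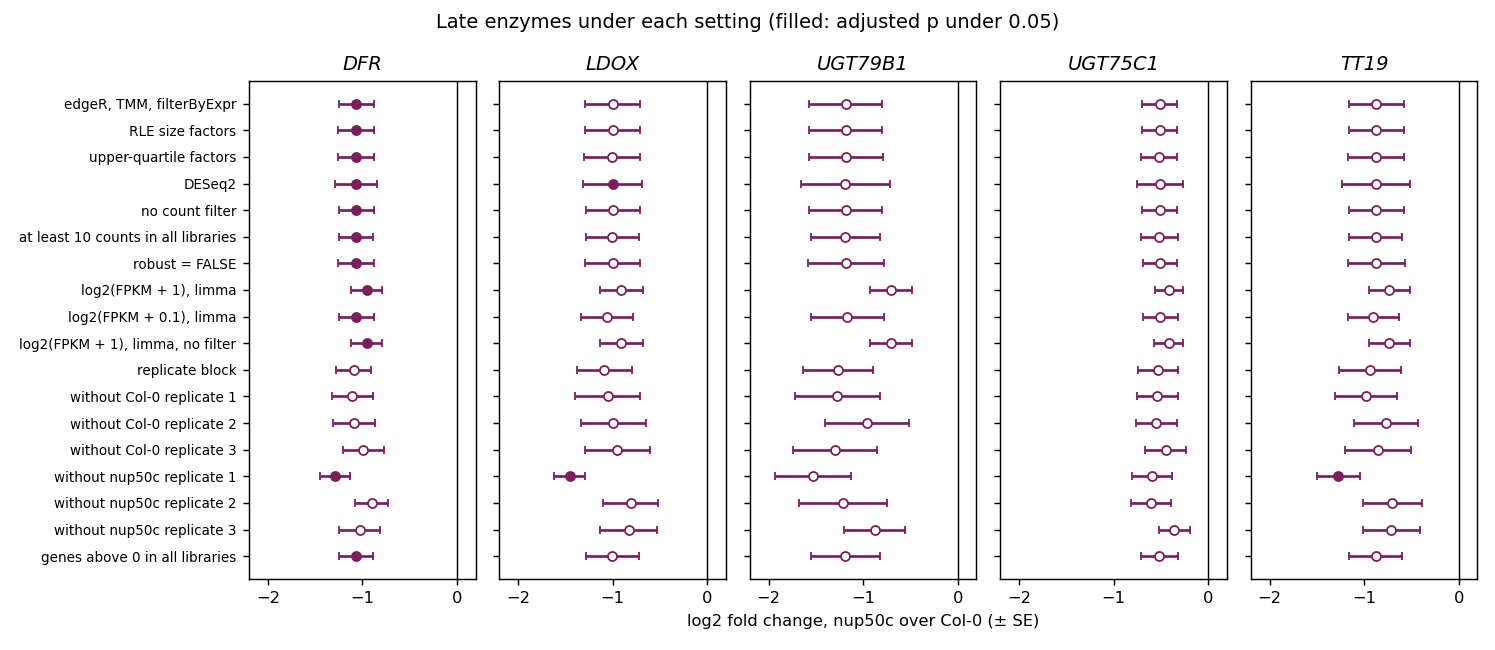
Log2 fold changes of the 5 late genes with their standard errors under each setting; filled circles passed an adjusted p of 0.05. All values lie below 0, *DFR* is filled in most settings that keep all libraries, and *LDOX* and *TT19* are filled when nup50c replicate 1 is left out.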

How the data were processed

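Messenger RNA libraries of 6 samples were compared, 3 per genotype, grouped by sample title. The authors deposited whole-number counts per gene and FPKM. HISAT2 2.0.4, HTSeq 0.6.1p1 and the TAIR10 build appear in the submitters' processing notes without a stated role. The program behind each table, the use of strand in counting and the total behind the FPKM were not given in the sources used here. Of 185190 deposited count values 57420 are 0 and only 40 are 1, and 1001 counts of 0 stand beside an FPKM above 0, so a 0 may be a failed estimate.

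Genes passing filterByExpr (10 counts, 15 in total; 21158 genes) went into edgeR 4.0.16 under R 4.3.3 (TMM, robust quasi-likelihood F test, no covariate) with calls at an adjusted p under 0.05 (Benjamini-Hochberg, over all of them). The biological coefficient of variation was 22.0%. Standard errors came from the moderated F. The test was checked on simulated counts with 200 changed genes. Alternatives were DESeq2 1.42.0, other scalings and filters, limma 3.58.1 on log2(FPKM + 1 or 0.1), a replicate block and leaving out each library. Replicates of a group were compared by chi-square, which was 14.7 to 30.1 per gene and so above counting noise; no library was treated as a duplicate.

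Positions, names and windows came from RefSeq TAIR10.1, which matched 30645 of 30865 loci, the 10 members included. The members, lists and motifs were chosen with earlier results of these data known. Named were the members, NUP50C, up to 3 called genes of each list or else the 1 with the smallest p, a fixed set of partners (CHS, UGT78D2, GL3, EGL3, MYB113, MYB114, HY5) and the 5 genes most like the late genes. Genes named outside this rule were chosen after their values were seen (GL2, SPL9, SUC1, BAN, TT12, TT2, ETC2 and the overlapping neighbours).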

Additional observations from a re-analysis of the deposited data

Results flagged for a closer look

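*ETC2* (AT2G30420), which encodes a small MYB protein that competes for the bHLH partners of the MBW complex, is listed in the FPKM table and not in the count table used here, so it had no count test. Its FPKM were 1.05, 1.17 and 1.02 in Col-0 and 3.09, 1.501 and 1.54 in nup50c, a mean of 2.04 in nup50c above each Col-0 library. On the log2(FPKM + 1) scale the difference was 0.51 and did not pass limma's test over 21361 genes (adjusted p = 0.267).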

How the results depend on the processing

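The fitted change of each of the 5 late genes stayed below 0 in all 17 alternatives. Their ranges were -1.29 to -0.90 for *DFR*, -1.45 to -0.81 for *LDOX*, -1.53 to -0.71 for *UGT79B1*, -0.60 to -0.36 for *UGT75C1* and -1.27 to -0.70 for *TT19*. *DFR* lost its call in 6 alternatives, the 5 left-out libraries named in the results and the replicate block (adjusted p = 0.108). Without nup50c replicate 1 the call of *DFR* was joined by those of *LDOX* and *TT19*. *MYBL2* ranged from -0.61 to -0.26 and *PAP1* from -0.68 to -0.16 with no call. Leaving out 1 library, *TT8* ran from -7.91 to 0.16, above 0 without Col-0 replicate 1, and *TTG1* from -0.12 to 0.072, above 0 without Col-0 replicate 2 and at 0.00016 without nup50c replicate 1.

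Called genes numbered 483 (236 higher, 247 lower), with 1 member and 6 genes of the pathway lists among them. DESeq2 called 1278 (662 and 616) with 2 members, at least 10 counts in all libraries gave 772 (394 and 378), and genes above 0 in all libraries, an alternative chosen after seeing the data, gave 778 (398 and 380). Leaving out 1 library gave 108 to 438 calls (43 to 172 higher, 65 to 266 lower), 0 to 3 members and 1 to 5 list genes. Like-numbered replicates showed no positive correlation of deviations from the group means (-0.02, -0.15 and -0.13 for replicates 1, 2 and 3). The highest value, 0.16, was that of Col-0 replicate 2 with nup50c replicate 3. With deviations that sum to 0 in each group, these values cannot show whether samples were grown or prepared together. The replicate block called 31 genes (12 and 19), 0 members and 0 list genes. Counts as low as those of the MYB and bHLH activators limit what could be detected.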
